A study of Mus musculus with 4 samples.

Results

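The 40 genes described here encode scaffold and adaptor proteins of the postsynaptic density, the protein mesh beneath the receptors of excitatory synapses. They were listed by symbol, with earlier results of these data known though no measured value enters the rule, and make up 40 of the 32531 gene names counted. Translating ribosome affinity purification was applied to cerebral cortex of adult mice of the Cbln1-EGFP/Rpl10a line NIDA030. The transgene of this line, named for Cbln1, encodes an EGFP-tagged form of the ribosomal protein Rpl10a. Only cells that express the transgene carry the tag. Tagged polysomes were pulled from the homogenate with anti-EGFP antibodies and their RNA sequenced (IP, libraries IP 2 and IP 4), and total RNA of the homogenate was sequenced beside it (input, libraries input 2 and input 4). All 4 libraries come from mice with the same transgene, genotype Cbln1-TRAP NIDA030, so IP is set against input and not against another genotype, and purification from mice without the tag was not analysed here. The labels do not say how many animals a library holds or whether libraries come from separate animals, so a p-value here reflects no more than the scatter between these 4 libraries, part of which may be technical.

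In an excitatory synapse the Dlg proteins, the family of PSD-95, sit under the membrane and hold glutamate receptors and channels in place. Dlgap proteins join them to the Shank proteins of the deeper layer, and Homer proteins link Shank to metabotropic glutamate receptors and their calcium stores. Adaptors such as Grip1 and Pick1 handle AMPA receptor traffic, and regulators of small GTPases and of branched actin set the shape of the spine.

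Gene counts per library ranged from 39750468 to 47567384, and a floor of 3 counts equals 0.0660 to 0.0790 CPM, counts scaled to the TMM-normalised size of the library. Such floors cover counting error only. Cbln1, the synaptic organiser gene named in the line, stood at 99.3 and 68.7 CPM in IP, against 11.9 and 8.55 CPM in input. Rpl10a, the gene of the tagged ribosomal protein, was lower, with 3.11 and 2.92 CPM in IP, against 6.82 and 7.14 CPM in input (log2 fold change -1.21, edgeR adjusted p = 0.00036). This rests on 118 and 126 reads in IP, against 310 and 309 in input, and reads that align to several places were not counted. Whether all Rpl10a reads would show the same was not tested. Of 60 markers of cortical cell types, 0 lacked counts in any library. Pan-neuronal markers rose in 9 of 10 cases and summed to 34682 and 32764 CPM in IP, against 14428 and 14887 CPM in input. Most of that sum is Snap25: the other 9 markers summed to 7636 and 7303 CPM in IP, against 3898 and 3976 CPM in input. The 8 glutamatergic markers, of which 6 rose and 1 fell, summed to 3332 and 3181 CPM in IP, against 2428 and 2497 CPM in input. The 9 GABAergic markers, 1 higher and 3 lower, summed to 934 and 1141 CPM in IP, against 1027 and 1082 CPM in input. Markers of astrocytes (3 of 7 higher, 2 lower) summed to 1003 and 1112 CPM in IP, against 767 and 753 CPM in input, and those of oligodendrocytes (2 of 8 higher, 5 lower) to 1307 and 1342 CPM in IP, against 1691 and 1589 CPM in input. The astrocyte sum rests on Aldoc: the other 6 markers summed to 296 and 330 CPM in IP, against 333 and 338 CPM in input. Without Gad2 the other 8 GABAergic markers summed to 558 and 627 CPM in IP, against 526 and 532 CPM in input. The sums of precursor (1 of 4 higher, 1 lower), microglial (1 of 7 higher, 2 lower) and endothelial or mural markers (0 of 7 called) ranged from 29.2 to 89.7 CPM in IP and from 30.0 to 80.0 CPM in input. These shifts stand beside every result that follows, and their part in it was not tested. Per the sample descriptions the IP libraries ran on lane 1 and the input libraries on lane 2, so an effect of lane and one of group cannot be told apart.

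Of the 40 scaffold genes, 14 were higher in IP and 5 were lower, and 21 did not pass, so that 19 of 40 (47.5%) were called, against 45.8% of all genes tested (quasi-likelihood test of edgeR, adjusted p under 0.05 by Benjamini-Hochberg over 16600 genes). These are 35% and 12.5% of the genes, where 23.4% of all genes tested were higher and 22.4% lower. The scaffold genes have a median of 199 CPM over all libraries, and abundant genes were higher more often: among all 3626 genes from 50 to 500 CPM, 43.9% were higher and 21.0% lower, or 64.9% in either direction. The 26 scaffold genes in that range held 10 that were higher (38.5%) and 3 that were lower (11.5%), so the share that rose was near that of genes of like abundance. The median log2 fold change over the 40 genes was 0.17, against 0.18 for the genes from 50 to 500 CPM and -0.035 for all genes tested. Called changes of at least 2-fold upward were found in 5 scaffold genes (12.5%, against 3.67% of all genes tested), namely Shank2, Lrrc7, Iqsec2, Cask and Pick1. Lrrc7 lies above the range from 50 to 500 CPM and Pick1 below it. Within that range 3 of 26 scaffold genes (11.5%) rose so far, against 5.76% of all genes there. A called change of at least 2-fold downward was found in 1 gene, Homer3 (2.5%, against 10.7% of all genes tested and 2.45% of those from 50 to 500 CPM, a range that Homer3 itself lies below). IP holds RNA of tagged polysomes and input total RNA of the homogenate. A lower value in IP may reflect which cells carry the tag or how much of the RNA sits on ribosomes, and these cannot be told apart.

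**Figure D1:**
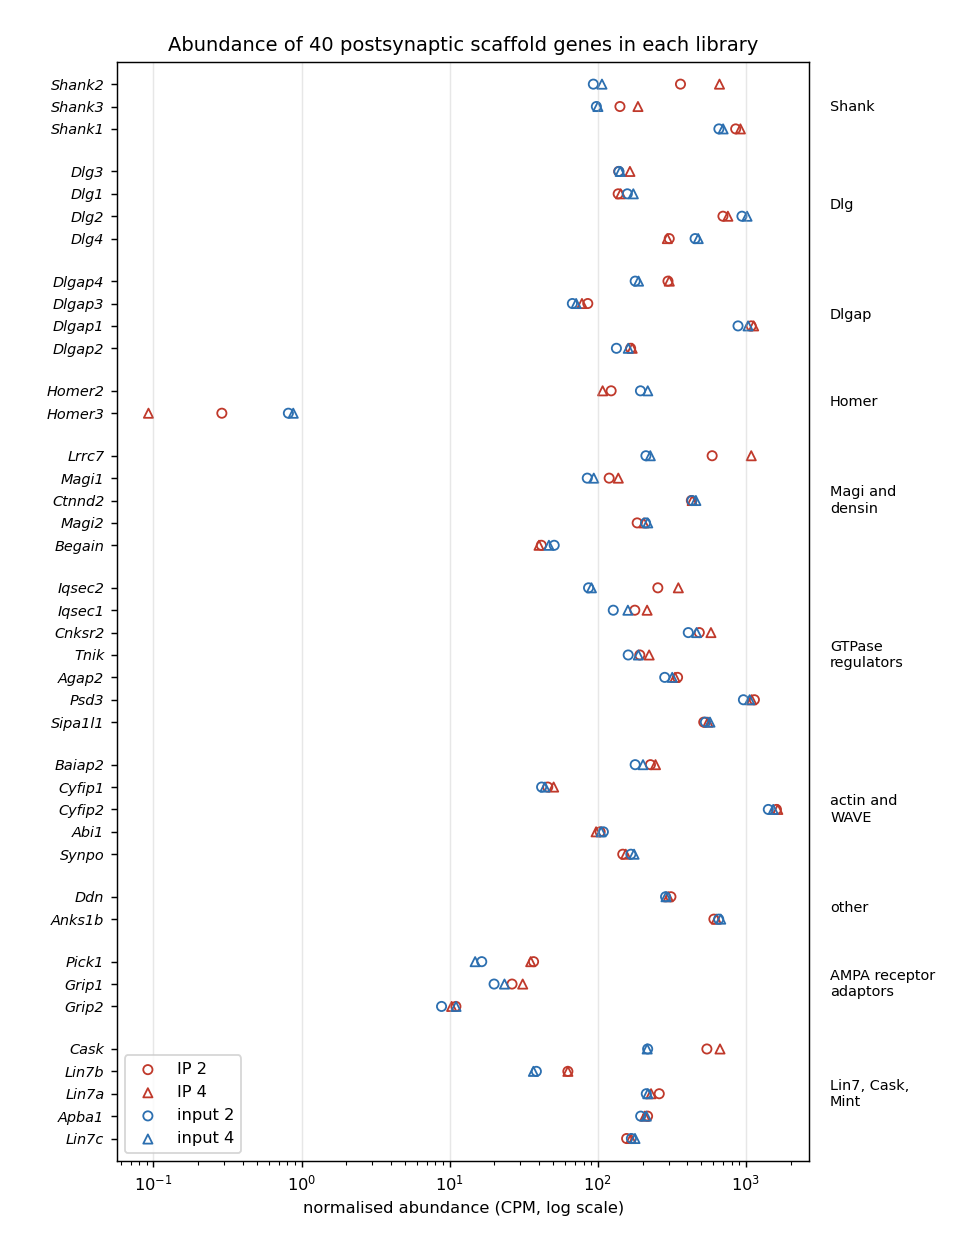
Normalised abundance (CPM, logarithmic axis) of the 40 scaffold genes in the 4 libraries, grouped by role, with IP libraries in red and input libraries in blue. Shank2, Lrrc7, Iqsec2 and Cask show IP symbols far to the right of the input symbols, the IP symbols of Shank2 and Lrrc7 lie apart from each other, and Homer3 sits alone near the floor.

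The Shank genes encode the large deep-layer scaffolds, and all 3 were higher in IP. Shank2 (ENSMUSG00000037541.21, plus strand of chromosome 7, 144001928 to 144424494 on GRCm38) had 361 CPM in IP 2 and 662 CPM in IP 4, against 93.1 and 107 CPM in input 2 and input 4. Both IP libraries lay far above both input libraries, but they also differed from each other more than the input libraries did. The log2 fold change was 2.36 (SE 0.18 and, by edgeR, adjusted p = 6.09e-09), the largest of the 40 genes. It was 1.86 without IP 4 and 2.75 without IP 2, so its size rests on which IP library is taken while its direction does not. Wherever a library is left out, its group has 1 library, which is assumed to vary like the 2 of the other group, so the p-values of such fits rest on that group's spread alone. Shank3 (ENSMUSG00000022623.16, chromosome 15) stood at 141 and 186 CPM in IP, against 97.6 and 99.99 CPM in input, and its log2 fold change was 0.73 (SE 0.11 and, by edgeR, adjusted p = 4.30e-05). Shank1 (ENSMUSG00000038738.15, chromosome 7) stood at 851 and 916 CPM in IP, against 656 and 699.8 CPM in input. Its log2 fold change of 0.38 (SE 0.087 and, by edgeR, adjusted p = 0.00135) lost the call when library sizes alone were used. Per kilobase of exon, taking all annotated exons of a gene, the level of Shank2 in IP was 47.5 ± 19.7 CPM/kb and that in input 9.27 ± 0.877 CPM/kb (mean ± SD of 2 libraries here and below). Shank3 reached 17.8 ± 3.50 CPM/kb in IP, against 10.8 ± 0.183 CPM/kb in input, and Shank1 84.0 ± 4.36 CPM/kb in IP, against 64.5 ± 2.98 CPM/kb in input. On that scale the family had the order Shank1, Shank3, Shank2 in input, where Shank3 and Shank2 differed by little more than their spread, and Shank1, Shank2, Shank3 in IP.

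Of the 4 Dlg genes, the membrane-associated guanylate kinases of the PSD-95 family, 3 were lower in IP and 1 did not pass. Dlg4, which encodes PSD-95 itself (ENSMUSG00000020886.17, plus strand of chromosome 11, 70016942 to 70047522), stood at 303 and 294 CPM in IP, against 453 and 475 CPM in input. The libraries of a group lay close together and the groups did not overlap, with a log2 fold change of -0.64 (SE 0.088 and, by edgeR, adjusted p = 9.44e-06). Dlg2, which encodes PSD-93, stood at 698 and 754 CPM in IP, against 938 and 1015 CPM in input, and fell by 0.43 on the log2 scale (SE 0.087 and, by edgeR, adjusted p = 0.000535). Dlg1, which encodes SAP97, stood at 137 and 142 CPM in IP, against 158 and 173 CPM in input. Its log2 fold change of -0.25 (SE 0.10 and, by edgeR, adjusted p = 0.0406) passed narrowly, and the call was lost without IP 2, without IP 4, without input 4 and with no filter on low counts. Dlg3, which encodes SAP102, stood at 138 and 164 CPM in IP, against 139 and 141 CPM in input, so the groups overlapped and the change of 0.11 did not pass. Per kilobase of exon Dlg2 led the family in both groups, with 44.6 CPM/kb in IP, against 59.98 CPM/kb in input, and Dlg1 was lowest, with 13.01 CPM/kb in IP, against 15.4 CPM/kb in input. Dlg4, with 22.5 CPM/kb in IP, against 35.0 CPM/kb in input, lay below Dlg3 in IP (25.9 CPM/kb) and above it in input (23.95 CPM/kb). That crossing depends on the length used: the exons of Dlg4 cover 13251 bases, against 6326 in its longest protein-coding transcript. Those of Dlg3 cover 5844 bases, against 4956. The difference between the Shank and the Dlg genes was not itself tested.

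Both Homer genes of the set, adaptors that bridge Shank and metabotropic glutamate receptors, were lower in IP. Homer2 (ENSMUSG00000025813.14, minus strand of chromosome 7, 81600481 to 81707527) stood at 123 and 108 CPM in IP, against 194 and 217 CPM in input. Every IP value lay below every input value, and the log2 fold change was -0.83 (SE 0.10 and, by edgeR, adjusted p = 2.09e-06). Homer3 was counted 11 and 4 times in IP, against 37 and 38 times in input, or 0.289 and 0.0925 CPM in IP, against 0.814 and 0.878 CPM in input. Its log2 fold change of -2.15 (SE 0.72 and, by edgeR, adjusted p = 0.0205) rests on these few reads, was lost without IP 4, without input 2 and without input 4, and was -3.14 without IP 2 and -1.53 without IP 4. Homer3 also shares 874 exonic bases with Ddx49 on the opposite strand, so its counts are uncertain. Homer1, the remaining gene of the family, is no member of the set and was named after its value was seen. It stood at 146 and 151 CPM in IP, against 192 and 247 CPM in input, and fell by 0.56 (SE 0.11 and, by edgeR, adjusted p = 0.000326).

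The 4 Dlgap genes encode the linkers between Dlg and Shank, and 1 of them passed. Dlgap4 stood at 297 and 303 CPM in IP, against 178 and 188 CPM in input (log2 fold change 0.71, SE 0.090, edgeR adjusted p = 3.41e-06). Dlgap1 stood at 1083 and 1125 CPM in IP, against 882 and 1032 CPM in input, and its change of 0.21 did not pass (edgeR adjusted p = 0.0713). Dlgap2 and Dlgap3 gave 0.20 and 0.24 and did not pass either (edgeR adjusted p = 0.123 and 0.0645). In all 4 genes every IP value exceeded every input value, although with library sizes alone the signs of Dlgap1, Dlgap2 and Dlgap3 turned. The same order of values was found in 24 of the 40 scaffold genes (60%), where 35.3% of all genes tested and 55.0% of those from 50 to 500 CPM did so. Both IP libraries lay below both input libraries in 11 scaffold genes (27.5%, against 37.8% of all genes tested and 29.3% of those from 50 to 500 CPM), and the groups overlapped in 5: Dlg3, Sipa1l1, Ctnnd2, Grip2 and Apba1.

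**Figure D2:**
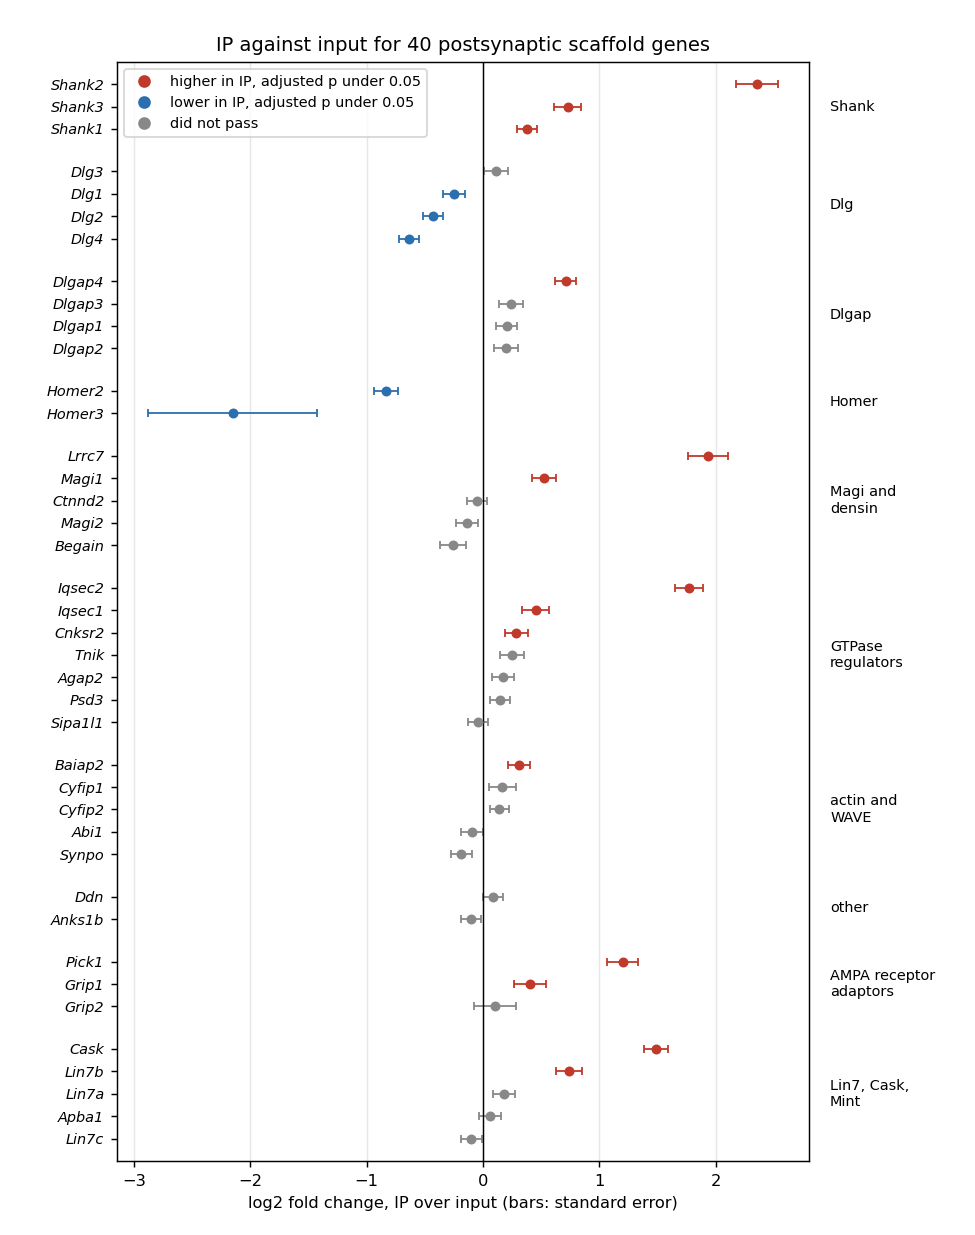
Log2 fold change of IP over input for the 40 scaffold genes by role, with bars for 1 standard error of the edgeR fit. The Shank genes all lie right of 0, between 0.38 and 2.36, the Homer genes lie left of it at -0.83 and -2.15, and 3 of the 4 Dlg genes lie left of it between -0.64 and -0.25.

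Lrrc7 encodes densin, a leucine-rich repeat protein that binds CaM kinase and Shank. It had 590.2 CPM in IP 2 and 1084 CPM in IP 4, against 211 and 226 CPM in input 2 and input 4. As with Shank2, both IP values exceeded both input values and the IP libraries lay far apart. The log2 fold change was 1.94 (SE 0.17 and, by edgeR, adjusted p = 4.74e-08), with 1.44 without IP 4 and 2.33 without IP 2. Lrrc7 (ENSMUSG00000028176.11) is on chromosome 3, minus strand, 158082891 to 158562221. Per kilobase of exon it held rank 2 of the 40 genes in IP, with 85.3 ± 35.6 CPM/kb, against rank 22 in input, with 22.2 ± 1.07 CPM/kb. Such ranks depend on the length used: the exons of Lrrc7 cover 9816 bases, against 7321 in its longest protein-coding transcript. Those of Dlgap1 cover 17890 bases, against 7173. Magi1, an inverted guanylate kinase scaffold of cell junctions, stood at 119 and 137 CPM in IP, against 84.8 and 93.7 CPM in input, and rose by 0.52 (SE 0.10 and, by edgeR, adjusted p = 0.000416). Its relative Magi2 had a log2 fold change of -0.14, Begain, which encodes a binding partner of PSD-95, of -0.26 and Ctnnd2, which encodes delta-catenin, of -0.048, and these 3 did not pass.

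Among the regulators of small GTPases, Iqsec2, an exchange factor for Arf proteins at excitatory synapses, changed most. It stood at 254 and 349 CPM in IP, against 86.5 and 90.4 CPM in input, and the groups were well apart. The log2 fold change was 1.77 (SE 0.12 and, by edgeR, adjusted p = 1.81e-09). Iqsec2 (ENSMUSG00000041115.16) lies on the plus strand of the X chromosome, from 152144268 to 152225236. Its paralog Iqsec1 stood at 177 and 215 CPM in IP, against 127 and 159 CPM in input, with a log2 fold change of 0.45 (SE 0.12 and, by edgeR, adjusted p = 0.00325) that lost its call with library sizes alone. Cnksr2, a scaffold of Ras signalling, stood at 483 and 579 CPM in IP, against 407 and 464 CPM in input, and its change of 0.29 (SE 0.10 and, by edgeR, adjusted p = 0.0245) lost its call without IP 4, without input 2 and with library sizes alone. Tnik, a kinase of the TRAF2- and Nck-interacting type, Agap2, an Arf GTPase activator, Psd3, another Arf exchange factor, and Sipa1l1, a Rap GTPase activator, gave 0.25, 0.17, 0.14 and -0.042 and did not pass.

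The Lin7, Cask and Mint proteins form a complex of PDZ scaffolds that works on both sides of synapses. Cask, a membrane-associated guanylate kinase scaffold (ENSMUSG00000031012.17, minus strand of the X chromosome, 13517080 to 13851367), stood at 544 and 667 CPM in IP, against 217 and 215 CPM in input. The input libraries were nearly equal and both IP libraries lay far above them. Its log2 fold change was 1.49 (SE 0.10 and, by edgeR, adjusted p = 1.43e-09). Lin7b stood at 62.7 and 62.7 CPM in IP, against 38.4 and 36.7 CPM in input, and rose by 0.74 (SE 0.11 and, by edgeR, adjusted p = 1.99e-05). Its exons overlap those of Gm45619 and Mtag2 on the opposite strand. Lin7a, Lin7c and Apba1, which encodes Mint1, gave 0.18, -0.099 and 0.060 and did not pass. Per kilobase of exon Lin7a, with 73.7 CPM/kb in IP, against 64.8 CPM/kb in input, was the most abundant Lin7 gene.

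The adaptors of AMPA receptor traffic were near the bottom of the 40 genes per kilobase of exon, at ranks 36, 38 and 39 in IP, above Homer3. The rank of Pick1 depends on the length used, as its exons cover 6573 bases, against 2054 in its longest protein-coding transcript. Pick1, a PDZ and BAR domain protein that binds AMPA receptor tails, stood at 36.8 and 35.2 CPM in IP, against 16.4 and 14.8 CPM in input. The values within each group were almost the same, and the log2 fold change was 1.20 (SE 0.13 and, by edgeR, adjusted p = 6.41e-07). Pick1 (ENSMUSG00000068206.13, plus strand of chromosome 15, 79229173 to 79249484) shares 1222 exonic bases with the protein-coding gene Gm49486 on the same strand, so reads there may have been dropped. Grip1 stood at 26.3 and 31.1 CPM in IP, against 19.9 and 23.4 CPM in input, and its change of 0.41 (SE 0.14 and, by edgeR, adjusted p = 0.0228) lost its call without IP 4, without input 2 and with library sizes alone. Grip2, at 11.0 and 10.3 CPM in IP, against 8.80 and 11.0 CPM in input, did not pass.

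Of the 5 actin-linked members 1 passed. Baiap2, which encodes IRSp53, a protein that bends membranes and binds the WAVE complex, stood at 226 and 245 CPM in IP, against 178 and 202 CPM in input. Its change of 0.31 (SE 0.10 and, by edgeR, adjusted p = 0.0127) lost its call without IP 4, without input 2 and with library sizes alone. Cyfip2, a WAVE complex subunit, was the most abundant of the 40 genes per kilobase of exon in both groups, with 228 ± 3.39 CPM/kb in IP, against 207 ± 11.2 CPM/kb in input, and its change of 0.14 did not pass. Its paralog Cyfip1 was far lower, with 4.02 CPM/kb in IP, against 3.58 CPM/kb in input. Cyfip1, the WAVE complex gene Abi1 and Synpo, the gene of the spine apparatus protein synaptopodin, gave log2 fold changes of 0.17, -0.092 and -0.18, and Ddn, the dendrin gene, and Anks1b gave 0.085 and -0.10, none of which passed. Over the 21 genes that did not pass, log2 fold changes ran from -0.26 to 0.25 with standard errors of 0.083 to 0.181, and 13 of them were above 0. The sign of such small values depends on the scaling: with library sizes alone the median of all genes moved by -0.26, and 13 of the 21 changed sign. Relative to the median of all genes, the median of the 40 genes was 0.21 with either scaling. The scaling moves all genes by nearly the same amount, so this equality was fixed in advance and says nothing about stability. Genes from 50 to 500 CPM had a median of 0.18 in the main fit, near the 0.17 of the 40 genes.

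**Figure D3:**
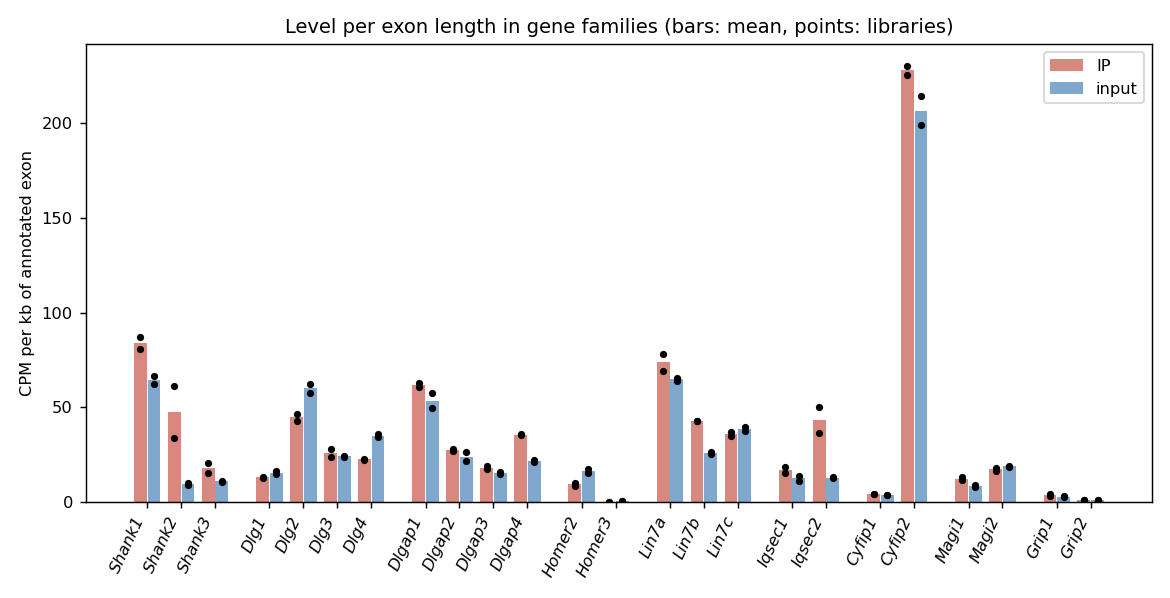
Level per kilobase of annotated exon (CPM/kb, linear axis from 0) for scaffold genes with a paralog among the 40, with bars for the mean and points for the libraries. Cyfip2 stands highest at 228 in IP and 207 in input, and the points of Shank2 in IP lie apart.

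Apart from Homer3 with its few counts, IP 2 and IP 4 differed most in Shank2 and Lrrc7. Of the 39 scaffold genes that averaged 5 CPM or more, 37 differed by less than 1.5-fold between the IP libraries and 39 between the input libraries. Shank2 and Lrrc7 had IP 4 to IP 2 ratios of 1.83 and 1.84 and input 4 to input 2 ratios of 1.14 and 1.07. Over the 3873 genes that averaged 50 CPM or more, the 1st and 99th percentiles of the IP ratio were 0.788 and 1.38. Lrrc7 and Shank2 held the 6th and 7th places from the top, after AK140265, Ets2, GU332589, X57780 and AK163440 and before Hivep2. Iqsec2, Shank3 and Cask, which were also higher in IP, had IP ratios of 1.38, 1.32 and 1.23 and input ratios of 1.05, 1.02 and 0.993. Together the 40 genes summed to 13209 and 14659 CPM in IP, against 11254 and 12190 CPM in input. Without Shank2 and Lrrc7 the sums were 12258 and 12913 CPM in IP, against 10950 and 11857 CPM in input, so with TMM scaling IP still lay above input. That order rests on the scaling: with library sizes alone the sum of all 40 genes averaged 12734 CPM in IP and 12821 CPM in input. As a share of raw gene counts the 40 genes made up 1.21% and 1.33% in IP, against 1.24% and 1.33% in input, where the groups overlapped. An exact permutation test over 2 against 2 libraries cannot go below a two-sided p of 0.333, so no p is given for the sums.

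**Figure D4:**
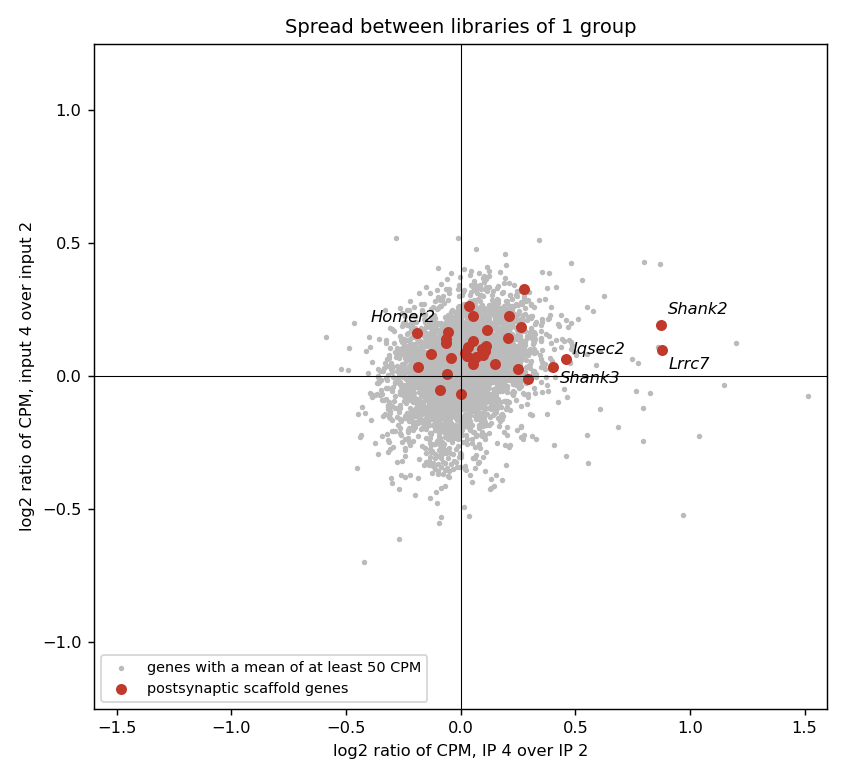
Log2 ratio of CPM between IP 4 and IP 2 (horizontal) and between input 4 and input 2 (vertical) for 3873 genes averaging 50 CPM or more (grey) and the scaffold genes among them (red). Shank2 and Lrrc7 lie at the right edge of the cloud, with IP ratios of 1.83 and 1.84, while their input ratios lie within it.

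Sequence features that the choice of genes did not use were set beside the fold changes. By GENCODE vM21 the longest protein-coding transcripts of the scaffold genes had a median of 6080 bases (735 to 12276), against 3239 bases for 13849 protein-coding genes tested and 4295 bases for the 3467 of them from 50 to 500 CPM. Long transcripts were lower in IP more often: of 843 genes of at least 8000 bases, 17.4% were higher and 37.6% lower, with a median log2 fold change of -0.18. The 8 scaffold genes of that length, among them Shank2, Shank1 and Cask, held 4 that were higher and 1 that was lower, Homer2, with a median of 0.32. The 843 genes were not matched to these 8 in abundance, which also went with the share called higher. Across the 40 genes Spearman's rank correlation between length and fold change was 0.11, against -0.13 across the 13849 protein-coding genes tested and -0.33 across those from 50 to 500 CPM, as a description over genes that share libraries. The GC content of these transcripts had a median of 52.0%, against 50.3% for the protein-coding genes tested. Exons of 17 of the 40 genes overlap those of another annotated gene, in 14 cases on the opposite strand. Since the strand setting of the counting is not given in the sources used here, reads of such partners may not have been told apart, which touches Shank1, Shank3, Lrrc7, Dlgap4, Iqsec1 and Homer2 among the genes with a called change, besides Lin7b and Homer3.

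**Figure D5:**
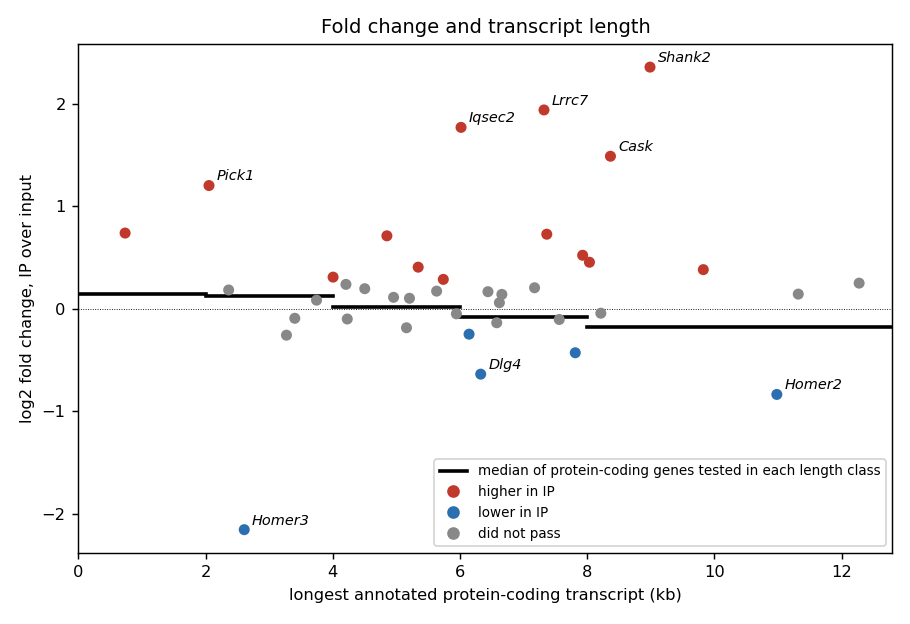
Log2 fold change of IP over input against the longest annotated protein-coding transcript (kb) for the 40 scaffold genes, with black lines for the median of protein-coding genes in each length class. The class medians fall to -0.18 at 8 kb and above, and Shank2, Cask, Lrrc7 and Iqsec2 lie above the lines at 6 kb and more.

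To show sequence for genes at either end, the 250 bases before an annotated start are given. The genes are the 3 called ones with the highest and the 3 with the lowest fold changes, among those averaging 5 CPM or more. Only genes with an entry in the set of RefSeq starts used (GRCm38.p6) were taken, and Shank2 and Cask had none there. The windows of Lrrc7, Dlg2, Dlg4 and Homer2 lie within the GENCODE span of the gene, that of Dlg2 far from the gene's start at 90476672. Where the set lists several starts, the window of the first listed is shown. Each is written 5′ to 3′ on the gene's strand, with matches to the motifs below in capitals on either strand.
Lrrc7 (chr3:158561762-158562011, minus strand): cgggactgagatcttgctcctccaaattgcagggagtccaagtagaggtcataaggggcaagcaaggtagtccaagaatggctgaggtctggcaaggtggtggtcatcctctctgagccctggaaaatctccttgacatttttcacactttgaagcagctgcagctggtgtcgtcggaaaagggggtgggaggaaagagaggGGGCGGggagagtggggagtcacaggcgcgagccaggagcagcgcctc
Iqsec2 (chrX:152144018-152144267, plus strand): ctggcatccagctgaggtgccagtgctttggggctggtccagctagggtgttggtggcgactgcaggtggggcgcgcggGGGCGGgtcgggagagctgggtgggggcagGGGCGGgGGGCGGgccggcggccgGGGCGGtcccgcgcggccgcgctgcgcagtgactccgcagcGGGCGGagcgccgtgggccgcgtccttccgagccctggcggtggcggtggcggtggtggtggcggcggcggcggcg
Pick1 (chr15:79228923-79229172, plus strand): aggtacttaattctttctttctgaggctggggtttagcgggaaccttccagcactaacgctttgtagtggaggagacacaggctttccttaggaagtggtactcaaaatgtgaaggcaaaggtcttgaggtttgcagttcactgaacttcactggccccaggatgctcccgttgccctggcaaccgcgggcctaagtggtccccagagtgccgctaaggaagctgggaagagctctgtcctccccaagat
Dlg2 (chr7:91090536-91090785, plus strand): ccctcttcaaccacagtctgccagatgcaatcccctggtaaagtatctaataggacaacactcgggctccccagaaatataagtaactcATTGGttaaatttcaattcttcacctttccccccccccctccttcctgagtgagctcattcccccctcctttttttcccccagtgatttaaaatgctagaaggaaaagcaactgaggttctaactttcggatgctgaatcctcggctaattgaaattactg
Dlg4 (chr11:70016953-70017202, plus strand): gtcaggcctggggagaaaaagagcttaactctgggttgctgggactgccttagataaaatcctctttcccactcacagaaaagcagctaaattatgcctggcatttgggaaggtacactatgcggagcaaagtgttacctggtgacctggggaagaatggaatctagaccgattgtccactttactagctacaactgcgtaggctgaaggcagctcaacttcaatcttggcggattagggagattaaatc
Homer2 (chr7:81706926-81707175, minus strand): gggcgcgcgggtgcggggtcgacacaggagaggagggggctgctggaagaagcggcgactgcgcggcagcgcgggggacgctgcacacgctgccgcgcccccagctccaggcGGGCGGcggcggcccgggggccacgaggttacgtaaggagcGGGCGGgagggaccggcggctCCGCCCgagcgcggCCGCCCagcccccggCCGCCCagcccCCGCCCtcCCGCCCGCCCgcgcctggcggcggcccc
The motifs searched on both strands were the cAMP response element TGACGTCA and its core TGACG, which lies within it, the GC box GGGCGG, the CCAAT box and the TATA box TATAAA. The windows of Iqsec2 and Homer2 are rich in GC (80% and 83.2%) and hold 5 and 8 GC boxes, that of Lrrc7 holds 1 GC box, that of Dlg2 holds 1 CCAAT box, and those of Pick1 and Dlg4 hold none of these motifs. So among the windows shown GC boxes are found at both ends of the fold changes. Of the 40 genes 31 had an entry, with 60 starts. A GC box lies in 51.7% of these 60 windows, against 32.7% of all 32851 windows, and the median GC content is 62%, against 52.4%. The CCAAT box is found in 30% against 33.8%, the TATA box in 10% against 12.4% and TGACG in 15% against 17.8%. The full response element matches 0 of the 60 windows, against 1.55% of all.

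Other genes of the excitatory postsynapse moved in both directions, as genes at large did. Over all genes tested 23.4% were higher and 22.4% lower, and from 50 to 500 CPM 43.9% were higher and 21.0% lower. The counts in this paragraph were not tested against these shares. Of 37 further genes listed, 12 were higher and 9 lower, with a median of 0.077. Kalrn, the gene of the spine protein kalirin, rose by 5.45 on the log2 scale, with means of 25736 CPM in IP and 588 CPM in input. It is among the 5 genes that stand apart in IP and were left out with Rn45s in an alternative below, so it does not typify the list. The Ras exchange factor gene Rasgrf1 rose by 0.90 and the adhesion gene Lrrtm1 by 0.82, whereas Neto2, an auxiliary subunit of kainate receptors, fell by 1.24. Of 19 genes of the WAVE and Arp2/3 actin machinery outside the 40, 9 were higher and 2 lower, with a median of 0.20. Dbn1, the drebrin gene, Arpc3, Arpc1a and Wasf1 rose by 1.49, 1.43, 0.96 and 0.69. Among inhibitory postsynaptic genes, Gphn, the gephyrin scaffold of inhibitory synapses, rose by 0.97, whereas the GABA receptor subunit gene Gabrb2 fell by 0.43. Of 8 mRNAs known to be carried into dendrites, 3 of them also among the 40, 3 were higher and 2 lower: Camk2a rose by 0.48 and Arc by 0.46, whereas Map2 fell by 1.63 and Nrgn by 0.42.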

How the data were processed

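RNA was measured in 2 IP and 2 input libraries of cortex. Each deposited table holds the raw counts of reads per gene for 1 library. The submitters' processing notes name STAR 2.0.0e, HTSeq and the mm10 build. Annotation, strand setting and library kit: not given in the sources used here. Summary lines were kept out of library sizes and the test: reads outside any feature made up 7.31% and 7.54% of all records in IP, against 14.9% and 13.5% in input, ambiguous reads 1.54% and 1.54% in IP, against 5.07% and 5.09% in input, and reads without a unique alignment 37.0% and 38.0% in IP, against 32.1% and 30.7% in input. Reads that align to several places were therefore not counted, which lowers genes with close copies.

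From the counts, IP was tested against input with edgeR 4.0.16 in R 4.3.3 (quasi-likelihood test, two-sided, TMM factors 0.919 and 0.909 for IP and 1.10 and 1.09 for input, filterByExpr with a minimum count of 10 and a minimum total of 15, no block). Of 21923 genes with counts 16600 were tested, all 40 scaffold genes among them. Genes with an adjusted p under 0.05 (Benjamini-Hochberg over all genes tested) are called. The biological coefficient of variation was 12.5%, with 2 residual and 16.8 prior degrees of freedom. A standard error is the size of the coefficient over the root of the F statistic. CPM values are counts scaled to TMM-normalised library size. A chi-square per degree of freedom of 21.2 between the IP libraries and 14.5 between the input libraries showed that libraries of the same group were not copies of each other. On simulated data with these 16600 genes and library sizes the test recovered 46% of genes changed 1.5-fold and 100% of those changed 2-fold, 4-fold and 8-fold (50 genes each), with 10 false calls among 16400 unchanged genes. Every gene was drawn with the same dispersion, and only genes averaging 5 CPM or more were changed. So these rates do not cover genes that vary more, such as Shank2 and Lrrc7, or data in which 45.8% of genes are called.

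The members and the gene lists were chosen with earlier results of these data known. All 40 scaffold genes are accounted for; from each further pathway list up to 4 called genes furthest from 0 in fold change, averaging 5 CPM or more, are named, and marker lists are given by counts and sums. The names Insyn1 and Insyn2a of the inhibitory list were not matched, and the counts over that list are not reported here. Coordinates, exons and lengths are those of GENCODE vM21 (GRCm38, the same assembly as mm10), to which 23155 of 32531 names matched by symbol. Alternatives were DESeq2 1.42.0, edgeR with the size factors of DESeq2 or with library sizes alone, no low-count filter or a stricter one, testing against 0.5 on the log2 scale, the replicate number as a block, omission of each library in turn, and omission of Rn45s with 5 genes that stand apart in IP. Figures were drawn with matplotlib 3.10.9.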

Additional observations from a re-analysis of the deposited data

How the results depend on the processing

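The counts of scaffold genes higher and lower in IP (14 and 5) were the same with DESeq2, with DESeq2 size factors in edgeR and without Rn45s and the 5 genes that stand apart, and were 16 and 4 with no filter on low counts (3750 and 3278 of all genes with DESeq2, 4104 and 3752 of 21923 with no filter). With library sizes alone they were 9 and 13, and the median turned to -0.089. In that setting 2151 of all genes were higher and 5910 lower. The stricter filter (at least 5 CPM in 2 libraries) gave 11 and 8 of 39 scaffold genes (28.2% and 20.5%), against 27.4% and 28.4% of the 10975 genes then tested, so that the share that rose was near that of all genes. It gave a median of 0.057 and left Homer3 untested. The test against a log2 fold change of 0.5 gave 8 and 1, and 1279 and 1705 over all genes. Leaving out each library in turn gave 11 to 17 higher and 3 to 4 lower scaffold genes, 3323 to 3720 higher and 2670 to 3421 lower over all genes, and a median of 0.10 to 0.25. In these fits the lone library is assumed to vary like the other group, whose 2 libraries alone give the spread, so their calls say little about stability. Called in the main test and lost with library sizes alone were Shank1, Baiap2, Cnksr2, Iqsec1 and Grip1. Baiap2, Cnksr2 and Grip1 were also lost with the stricter filter. The 8 upward calls that held in the test against 0.5 were Shank2, Lrrc7, Iqsec2, Cask, Pick1, Lin7b, Shank3 and Dlgap4, beside Homer2 downward. Those 9 calls held under every other alternative run with both libraries in each group.

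The summed CPM of the 40 genes averaged 13934 in IP and 11722 in input. With library sizes alone the means were 12734 in IP and 12821 in input, and without Rn45s and the 5 genes 15103 in IP and 12689 in input. Leaving out each library in turn gave 13519 to 15192 in IP and 10891 to 12073 in input.

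Signs of single genes turned only where the change had not passed. With library sizes alone the log2 fold change was -0.15 for Dlg3, -0.053 for Dlgap1, -0.062 for Dlgap2, -0.020 for Dlgap3, -0.17 for Ddn, -0.11 for Psd3, -0.085 for Agap2, -0.092 for Cyfip1, -0.12 for Cyfip2, -0.0082 for Tnik, -0.15 for Grip2, -0.074 for Lin7a and -0.20 for Apba1. With the stricter filter it was -0.0031 for Dlg3, -0.031 for Ddn, -0.012 for Grip2 and -0.056 for Apba1. Leaving out each library in turn gave -0.0095 to 0.25 for Dlg3, -0.087 to 0.021 for Sipa1l1, -0.087 to 0.0056 for Ctnnd2 and -0.045 to 0.28 for Grip2.

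With the replicate number as a block, 18 scaffold genes were higher and 6 lower (4314 and 4037 over all genes, median 0.17). The 19 calls were kept and Dlgap1, Dlgap2, Dlgap3, Begain and Tnik were gained. The labels do not say that a number marks an animal, and deviations of same-numbered libraries correlated with r = 0.094 over genes, so the numbers are not shown to pair the libraries. Depth limits Homer3, with 4 to 38 counts per library. The cause of these shifts was not tested.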
